A study of Mus musculus with 12 samples.

Results

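Integrins are adhesion receptors made of 1 alpha and 1 beta subunit, and leukocytes use them to leave the blood, to hold on to matrix and other cells and to take up particles. The mRNAs of 10 integrin subunits were followed here in macrophages (Mϕ) of the inflamed mouse peritoneum, with the subunit β7 (Itgb7) at their head. The 10 genes are Itgb7, Itga4, Itgb1, Itgb2, Itgam, Itgax, Itgal, Itga6, Itgav and Itgb5, found by symbol among 47643 gene identifiers in each of the tables. All 10 passed the minimum mean of 3 in both tables, Itgax in F4/80hi Mϕ through its VEH libraries alone. The set was selected on results of these same libraries, first the log2 fold changes of Itgb7 and Itgal under CIII, so their values in the contrast of CIII against VEH are described below without a test. Tests of that contrast are given only as counts over all genes and for genes outside the set.

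The Mϕ were washed from the peritoneum of female mice of the strain C57/BL6, aged 8 to 12 weeks by the study's methods, on day 6 after an injection of zymosan A (5 mg/kg), a yeast wall particle that sets off a peritonitis. All mice received zymosan. From day 1 they were injected intraperitoneally each day with CIII (25 mg/kg), an inhibitor of the prostaglandin E2 synthase mPGES-1, or with its vehicle (VEH). Cell sorting gave F4/80lo Mϕ (CD45+, CD11b+, low for F4/80 and MerTK, high for MHCII by the labels) and F4/80hi Mϕ (CD45+, CD11b+, high for F4/80 and MerTK), after cells with CD11c and MHCII had been gated out as dendritic cells. The study's methods put the F4/80lo gate among cells without Ly6G, a neutrophil marker, and call it MHCII positive. Each of the 4 groups, F4/80lo VEH, F4/80lo CIII, F4/80hi VEH and F4/80hi CIII, had 3 libraries numbered 1 to 3. Any pooling of mice is not given in the sources used here. CD11b and CD11c are the proteins of Itgam and Itgax, so the levels of these genes are bound to the sort.

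The α4 subunit pairs with β1 or with β7. The α4β1 heterodimer binds VCAM-1 and fibronectin, and α4β7 binds the gut addressin MAdCAM-1 and is best known from lymphocytes homing to the intestine. The β2 subunit pairs with αL, αM and αX to give LFA-1, the complement receptor CR3 and CR4, which carry much of the adhesion and phagocytosis of myeloid cells. Resident peritoneal Mϕ are F4/80 high and express Gata6, while Mϕ newly derived from monocytes are lower for F4/80 and carry more MHCII.

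The start of a gene is where the factors that set its transcription bind, and the starts of Itgb7, the subunit that separated CIII from VEH, and of Itgax, which set most F4/80lo libraries apart from the F4/80hi libraries, are shown for orientation. Each sequence runs from 250 bases before the start to 20 after it, on the gene's strand, and comes from RefSeq on GRCm38.p6, which had such an entry for 7 of the 10 members. The Itgb7 window is chr15:102231916-102232185 on the minus strand and the Itgax window is chr7:128129300-128129569 on the plus strand. Capitals mark matches, on either strand, to AGGAAGT, a core of the myeloid factor PU.1, or to TGTGGT, a core of the RUNX factors.
Itgb7: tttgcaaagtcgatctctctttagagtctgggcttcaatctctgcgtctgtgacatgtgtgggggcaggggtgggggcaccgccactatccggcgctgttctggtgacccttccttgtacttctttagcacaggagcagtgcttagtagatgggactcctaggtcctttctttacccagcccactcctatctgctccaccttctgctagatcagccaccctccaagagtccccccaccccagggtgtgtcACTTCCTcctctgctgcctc
Itgax: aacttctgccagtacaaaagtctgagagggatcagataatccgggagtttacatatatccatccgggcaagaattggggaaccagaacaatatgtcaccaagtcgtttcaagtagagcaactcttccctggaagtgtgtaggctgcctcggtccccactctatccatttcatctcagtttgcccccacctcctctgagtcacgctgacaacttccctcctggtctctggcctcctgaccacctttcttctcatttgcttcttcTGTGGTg
The PU.1 letters began at position 1 in Itgb7 and at -9 in Itgav, counted from the transcription start. The RUNX letters began at position 14 in Itgax and at -60 in Itga4. Among 32851 RefSeq promoters of this length, 8.43% held AGGAAGT and 15.1% held TGTGGT on either strand, and no window of the 7 members held both. Such matches are letters in a window and say nothing of binding in these cells.

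The libraries held between 426624 and 3389448 reads on genes, and a count of 0 allows up to 0.885 to 7.03 reads per 1000000 (RPM), counting error only. The libraries labelled F4/80hi number 3, 1 from VEH and 1 from CIII, stood apart from their group. Of 12 listed markers of resident peritoneal Mϕ, 11 in the library labelled F4/80hi VEH 3 and 10 in that labelled F4/80hi CIII 3 were no higher than in the highest F4/80lo library. Cd5l, a secreted protein of resident Mϕ, stood at 2708 to 3870 RPM in the other F4/80hi libraries and at 24.6 and 342 RPM in these. Adgre1, which encodes F4/80 itself, stood at 1085 to 1287 RPM against 431 and 386 RPM. Ccr2, the chemokine receptor of recruited monocytes, stood at 19.5 to 306 RPM against 1411 and 740.2 RPM. The library labelled F4/80lo VEH 3 held 711 RPM of the MHCII gene H2-Aa, against 4046 to 7938 RPM in the other F4/80lo libraries. Reads of Gm42418 made up 2.65% to 14.3% of the number 3 libraries and at most 0.579% of the others. The members' differences are therefore given with all libraries and without the number 3 libraries, which leaves 2 per group.

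**Figure D1:**
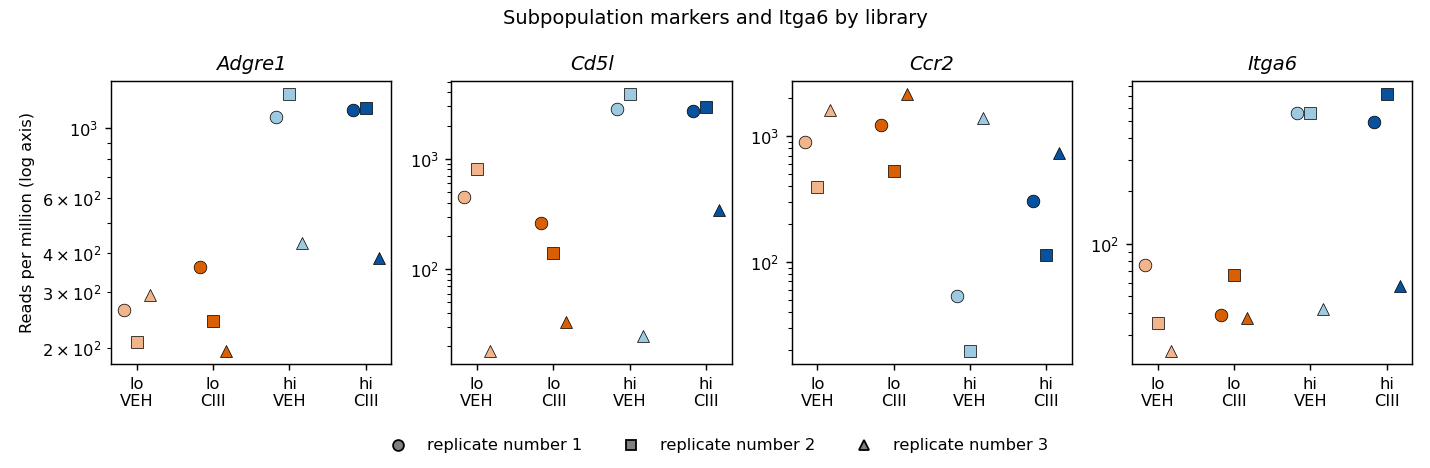
RPM on log axes for Adgre1 (F4/80), Cd5l, Ccr2 and Itga6 in each library, by group and replicate number. The F4/80hi libraries numbered 3 (triangles) lie near the F4/80lo libraries for Cd5l and Itga6, at 24.6 and 342 RPM of Cd5l where the other F4/80hi libraries hold 2708 to 3870 RPM.

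The first comparison asked how the integrin subunits stood in Mϕ of mice in which mPGES-1 had been inhibited. Values are the deposited normalized counts, numbers 1 to 3 in order, which are comparable within a subpopulation only. Log2 fold changes are on the scale of log2(normalized count + 1), each with its SE from limma at n = 3 per group. In bulk samples, a change in the kinds of cells in the gate and a change in mRNA per cell cannot be told apart.

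Itgb7 (ENSMUSG00000001281, chr15:102215995-102231944, minus strand, GRCm38), the β7 subunit, was higher under CIII in both subpopulations. In F4/80lo Mϕ it stood at 82.6, 149 and 136 normalized counts under VEH and at 290.1, 238 and 395 under CIII (numbers 1 to 3), a mean of 123 ± 35.2 against 307 ± 80.0 (SD, n = 3). No CIII library reached down to the VEH libraries. The log2 fold change was 1.33 (SE 0.37), and the differences within numbers 1, 2 and 3 were 1.80, 0.67 and 1.53. The F4/80hi libraries stood at 136, 91.4 and 73.4 under VEH and at 179.8, 263 and 269.7 under CIII, a mean of 100.1 ± 32.0 against 238 ± 50.1 (SD, n = 3). These groups did not overlap either. The log2 fold change was 1.26 (SE 0.36), with 0.40, 1.51 and 1.86 within the numbers. Without the number 3 libraries the log2 fold changes were 1.24 and 0.96. Leaving out any single library kept them between 1.07 and 1.50 in F4/80lo and between 1.06 and 1.50 in F4/80hi Mϕ. In F4/80lo Mϕ 8 markers of dendritic cells reached the minimum mean of 3 in both groups, and all 8 lay above 0 under CIII, with a median of 1.09 against -0.05 over all genes. Tlr3 was wholly higher, as 3.82% of all genes were. Their summed level overlapped, at 366 to 593 RPM under VEH and 475 to 548 RPM under CIII. Of 3 such markers in F4/80hi Mϕ, 2 lay above 0, with a median of 0.36 against 0.05. The part of these cells in the Itgb7 difference was not tested.

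Itgb7 was the only member whose CIII and VEH libraries did not overlap, in each subpopulation. Among all genes tested, the groups did not overlap in 8.73% of 10718 in F4/80lo Mϕ (3.82% higher and 4.92% lower under CIII) and in 10.5% of 10499 in F4/80hi Mϕ (4.73% higher and 5.76% lower). With limma and an adjusted p under 0.05, 0% of the genes were called in either subpopulation, while 289 and 413 genes had an unadjusted p under 0.05. DESeq2 on the recovered reads called 2 and 0 genes, and the edgeR quasi-likelihood test 0 and 0. Over the 10 members, 8 fold changes lay above 0 and 2 below in F4/80lo Mϕ, with a median of 0.45 against -0.05 over all genes. In F4/80hi Mϕ 9 lay above and 1 below 0, with a median of 0.53 against 0.05 over all genes. The 1 below 0 was Itgax, which met the minimum there through its VEH libraries alone, so that its direction was fixed. These counts describe genes that were selected with this contrast in view.

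**Figure D2:**
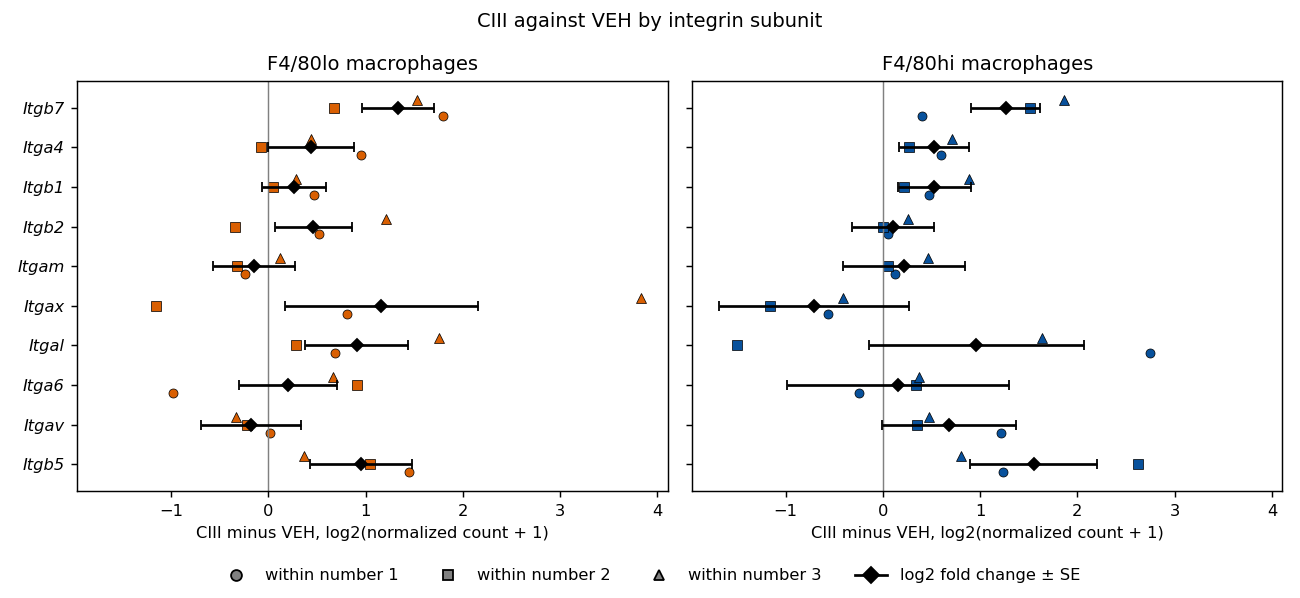
Difference between CIII and VEH on the scale of log2(normalized count + 1) for each member in F4/80lo (left) and F4/80hi (right) Mϕ, as the log2 fold change with its SE (diamonds) and within each replicate number (other symbols). Itgb7 lies above 0 in all 6 within-number differences, as do Itgb5 and Itgb1, whose groups overlap.

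Itga4 (ENSMUSG00000027009, chr2:79255426-79333123, plus strand) encodes α4, the partner that β7 and β1 compete for. Its normalized counts in F4/80lo Mϕ were 296, 297 and 563 under VEH and 573, 281 and 765 under CIII, and in F4/80hi Mϕ 266, 303 and 394 under VEH and 404, 365 and 643 under CIII. The groups overlapped in both subpopulations, and the number 3 library was the highest of each group. The log2 fold changes were 0.44 (SE 0.44) and 0.52 (SE 0.36), and 0.44 and 0.43 without the number 3 libraries.

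Itgb1 (ENSMUSG00000025809, chr8:128685654-128733200, plus strand) encodes β1, the common partner of many alpha subunits. It stood at 334, 348 and 425 normalized counts under VEH and 462, 359 and 519.6 under CIII in F4/80lo Mϕ. Its F4/80hi values were 519, 779.9 and 386 under VEH and 723, 906 and 716 under CIII. Its groups overlapped, with log2 fold changes of 0.27 (SE 0.33) and 0.53 (SE 0.37), or 0.26 and 0.35 without the number 3 libraries.

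The reads of the beta partners of α4 were also set against each other as the share of Itgb7 among Itgb7 plus Itgb1 reads. The share is one of 3′ tags, with 1 tag per molecule whatever its length, and not of heterodimers. In F4/80lo Mϕ it was 24.7% ± 5.08 under VEH and 40.5% ± 2.37 under CIII, and in F4/80hi Mϕ 15.7% ± 5.12 and 23.3% ± 3.78 (SD, n = 3 each). In F4/80lo Mϕ the highest VEH library (30.0%) lay below the lowest CIII library (38.6%). In F4/80hi Mϕ the library VEH 1 (20.7%, 95% Wilson interval 17.4% to 24.5%) lay above CIII 1 (19.9%, 17.8% to 22.2%), and these intervals overlap.

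**Figure D3:**
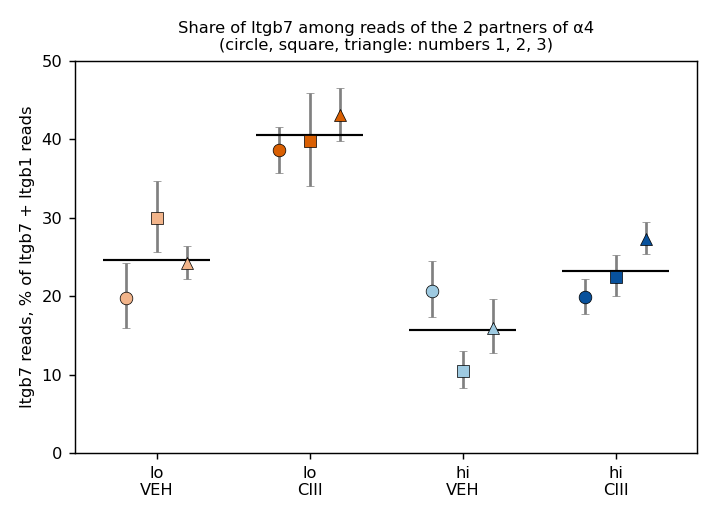
Share of Itgb7 reads among Itgb7 plus Itgb1 reads in percent, by group and library, with 95% Wilson intervals (counting error only) and the group mean as a line. The F4/80lo CIII libraries lie between 38.6% and 43.2%, above the other 9 libraries, of which the highest is 30.0%.

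The β2 group gave smaller or less even differences. Itgb2 (ENSMUSG00000000290, chr10:77530252-77565708, plus strand), the beta chain of all leukocyte β2 integrins, stood at 1015, 1317 and 828 normalized counts under VEH and 1453, 1042 and 1911 under CIII in F4/80lo Mϕ. In F4/80hi Mϕ it stood at 2041, 1718 and 1101 under VEH and at 2122, 1714 and 1314 under CIII. The log2 fold changes were 0.46 (SE 0.40) and 0.10 (SE 0.42), and the groups overlapped. They were 0.09 and 0.03 without the number 3 libraries.

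Itgal (ENSMUSG00000030830, chr7:127296260-127335138, plus strand), the αL chain of LFA-1, stood at 51.2, 97.6 and 106 normalized counts under VEH and 83.0, 119 and 360.4 under CIII in F4/80lo Mϕ. F4/80hi libraries held 3.99, 56.2 and 67.1 under VEH and 32.5, 19.2 and 210.1 under CIII. The library CIII 3 was by far the highest in both subpopulations. With log2 fold changes of 0.91 (SE 0.53) and 0.96 (SE 1.11) the groups overlapped, and without the number 3 libraries the values were 0.48 and 0.62.

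Itgam (ENSMUSG00000030786, chr7:128062640-128118491, plus strand), the αM chain of CR3 and the CD11b of the gate, stood at 3217, 2520 and 1849 normalized counts under VEH and 2728, 2017 and 2003 under CIII in F4/80lo Mϕ. Its F4/80hi values were 7817, 5923 and 2460 under VEH and 8532, 6142 and 3396 under CIII. The log2 fold changes were -0.15 (SE 0.43) and 0.21 (SE 0.63), and -0.28 and 0.09 without the number 3 libraries.

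Itgax (ENSMUSG00000030789, chr7:128129547-128150657, plus strand), the αX chain known as CD11c, stood at 38.4, 118 and 2.33 normalized counts under VEH and 68.1, 52.5 and 46.4 under CIII in F4/80lo Mϕ. The library labelled F4/80lo VEH 3 stood far below the others. The log2 fold change was 1.16 (SE 0.99) there, and -0.17 without the number 3 libraries. F4/80hi Mϕ gave between 1 and 7 Itgax reads in every library, with a log2 fold change of -0.71 (SE 0.98), or -0.86 without the number 3 libraries.

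The remaining members bind matrix. Itgb5 (ENSMUSG00000022817, chr16:33829665-33949338, plus strand), the β5 chain that pairs with αv in a receptor for vitronectin and for apoptotic cells, stood at 31.4, 28.2 and 100.3 normalized counts under VEH and 87.3, 59.4 and 129 under CIII in F4/80lo Mϕ, with a log2 fold change of 0.95 (SE 0.52). In F4/80hi Mϕ it stood at 27.9, 13.1 and 90.1 under VEH and 67.1, 85.3 and 158 under CIII, with 1.55 (SE 0.65). In each group the number 3 library was the highest, and CIII exceeded VEH within all 3 numbers in both subpopulations, although the groups overlapped. Without the number 3 libraries the log2 fold changes were 1.25 and 1.93.

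Itgav (ENSMUSG00000027087, chr2:83724397-83806916, plus strand), the αv chain, lay between 29.7 and 93.6 normalized counts in F4/80lo Mϕ and between 14.6 and 99.6 in F4/80hi Mϕ, with log2 fold changes of -0.18 (SE 0.51) and 0.68 (SE 0.69), or -0.10 and 0.78 without the number 3 libraries. Single libraries left out moved them over -0.55 to 0.27 and over 0.11 to 1.35. Itga6 (ENSMUSG00000027111, chr2:71745616-71858416, plus strand), the laminin-binding α6 chain, had log2 fold changes of 0.20 (SE 0.50) and 0.16 (SE 1.14), or -0.04 and 0.05 without the number 3 libraries. The αv chain mRNA was also highest in the number 3 library of every group.

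The response to CIII was compared between the subpopulations with an interaction term over the 12 libraries. For Itgb7 the responses differed by 0.01 (F4/80lo minus F4/80hi, log2, SE 0.50), which is given as a description since the set was selected on these responses. Over all genes limma called 0, with 198 at an unadjusted p under 0.05, DESeq2 and edgeR called 0, and limma called 0 without the number 3 libraries.

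The second comparison set the level in F4/80lo against that in F4/80hi Mϕ within each treatment. The authors had scaled the tables separately, so recovered reads of all 12 libraries were brought to 1 scale, TMM-scaled RPM, and differences are on log2(RPM + 1). This contrast was tested with limma over 10726 genes, and p-values measure only the spread between these libraries.

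On this scale Itgb7 stood at 80.9, 147 and 142 RPM in F4/80lo VEH, 297, 230 and 393 in F4/80lo CIII, 143, 97.5 and 78.4 in F4/80hi VEH and 199, 286 and 297 in F4/80hi CIII libraries. Every CIII library lay above every VEH library across both subpopulations. In order of their means the groups ran F4/80lo CIII, F4/80hi CIII, F4/80lo VEH, F4/80hi VEH, and only the second and the third did not overlap. F4/80lo and F4/80hi Mϕ differed by 0.21 under VEH (95% interval -0.55 to 0.97) and by 0.22 under CIII (-0.54 to 0.98), with limma adjusted p of 0.971 and 0.984. The differences were -0.09 and 0.13 without the number 3 libraries. Within the numbers the sign was not the same throughout.

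**Figure D4:**
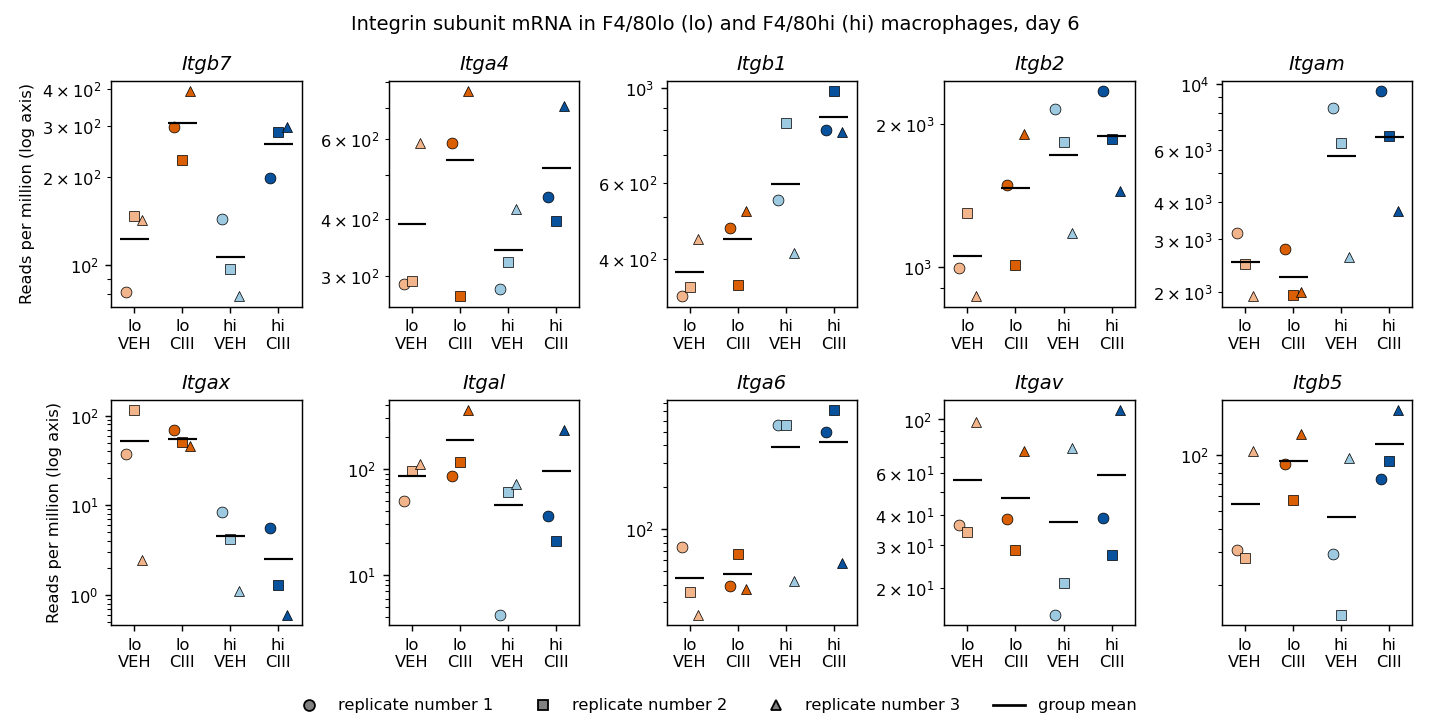
TMM-scaled RPM of the 10 members on log axes (a range of its own for each gene), for the 3 libraries of each group with the group mean as a line. Itgb7 is higher in all CIII than in all VEH libraries, Itgax is higher in F4/80lo libraries other than VEH 3, and Itga6 is 494 to 718 RPM in F4/80hi libraries 1 and 2 and 24.4 to 75.2 RPM in the others.

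Itga6 was the member that stood highest in F4/80hi against F4/80lo Mϕ by fold of the means. It stood at 75.2, 35.5 and 24.4 RPM in F4/80lo VEH and 39.2, 66.2 and 37.5 in F4/80lo CIII libraries. In F4/80hi libraries 1 and 2 it stood at 559.9 and 556 RPM under VEH and 494 and 718 under CIII, whereas the libraries labelled F4/80hi VEH 3 and CIII 3 held 42.6 and 57.3 RPM, within the F4/80lo range. With all libraries the difference was -2.53 under VEH (95% interval -4.61 to -0.45, adjusted p = 0.829 by limma) and -2.55 under CIII (-4.63 to -0.46, adjusted p = 0.873). Without the number 3 libraries it was -3.38 (adjusted p = 0.000462 by limma) and -3.52 (adjusted p = 0.000353), at 10.1 and 11.5 times the F4/80lo mean. This exclusion was made after the marker levels had been seen, leaves 2 libraries per group and removes the F4/80hi libraries where Itga6 was low. The small adjusted p-values therefore depend on the exclusion. The summed level of the 12 resident markers, which do not include Itga6, was 694 to 1825 RPM in F4/80lo libraries, 867 and 1292 RPM in the libraries labelled F4/80hi number 3 and at least 6373 RPM in the other F4/80hi libraries. The part of these cells in the Itga6 difference was not tested.

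Itgax went the other way, with a wider difference than Itga6 under CIII. F4/80lo VEH libraries held 37.6, 117 and 2.4 RPM and F4/80lo CIII libraries 69.8, 50.8 and 46.3 RPM, against 1.1 to 8.4 RPM in F4/80hi VEH and 0.6 to 5.6 RPM in F4/80hi CIII libraries. Only under CIII did the groups stand clear of each other, and the library labelled F4/80lo VEH 3 lay among the F4/80hi libraries. The difference was 2.41 under VEH (adjusted p = 0.829 by limma) and 4.27 under CIII (adjusted p = 0.582). With the replicate number as a block these became 0.198 and 0.0379, and without the number 3 libraries 0.0602 and 0.0233 at differences of 3.30 and 3.97, all by limma. Leaving out single libraries moved the difference under VEH from 1.29 (without F4/80lo VEH 2) to 3.86 (without F4/80lo VEH 3), and that under CIII from 3.85 to 4.84. Under CIII Itgax reached the minimum of 3 RPM in F4/80lo Mϕ and not in F4/80hi Mϕ, which fixes its direction there. DESeq2 on the recovered reads gave Itgax an adjusted p of 0.0359 under CIII. All adjusted p-values of Itgax under CIII are therefore descriptions and no support for a difference. As summed reads the rate in F4/80lo Mϕ was 6.75 times that in F4/80hi Mϕ under VEH (132 against 10 reads, exact 95% interval 3.56 to 14.4) and 24.0 times under CIII (161 against 9 reads, 12.3 to 53.5), counting error only. These rates were 11.9 times (6.07 to 26.6) and 16.4 times (8.06 to 38.9) without the number 3 libraries. The 12 listed markers of dendritic cells summed to 366 to 593 RPM in F4/80lo and 131 to 392 RPM in F4/80hi libraries, and all had a read in some library. Without Irf8 and Irf4, which Mϕ also express, the sums were 16.7 to 258 and 2.61 to 36.2 RPM. Under VEH 4 markers reached 3 RPM in both subpopulations, of which 3 lay above 0 and Tlr3 was wholly lower in F4/80lo Mϕ, as 4.2% of all genes were. Under CIII 3 did, all above 0, with Irf4 wholly higher, as 5% of all genes were. A further 3 markers under VEH and 5 under CIII reached it in F4/80lo Mϕ alone, which fixes their direction. The part of these markers in the Itgax difference was not tested.

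Itgam and Itgb1 were lower in F4/80lo Mϕ, and their groups did not overlap under CIII. Itgam stood at 1934 to 3150 RPM in F4/80lo VEH and 1949 to 2794 in F4/80lo CIII libraries, and at 2629 to 8270 RPM in F4/80hi VEH and 3742 to 9442 in F4/80hi CIII libraries. The differences were -1.06 and -1.48 (limma adjusted p of 0.852 and 0.860), or -1.34 and -1.76 without the number 3 libraries. Itgb1 stood at 327 to 445 and 347 to 518 RPM in F4/80lo VEH and CIII libraries, and at 412 to 831 and 788 to 984 RPM in the F4/80hi ones, with differences of -0.64 and -0.96 (limma adjusted p of 0.858 and 0.846), or -0.98 and -1.13 without the number 3 libraries. Itgb2 differed by -0.69 and -0.38, with overlapping groups, or by -0.78 and -0.77 without the number 3 libraries.

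Itgal was higher in F4/80lo Mϕ within every number, by 0.62 to 3.29, but its groups overlapped and its differences were 1.53 and 1.42 (adjusted p of 0.913 and 0.945 by limma). Its F4/80hi levels ran from 4.2 to 231 RPM. Leaving out single libraries moved the difference under VEH from 0.32 (without F4/80hi VEH 1, which held 3 reads) to 2.24 (without F4/80hi VEH 3). Under CIII it moved from 0.72 (without F4/80hi CIII 2) to 2.45 (without F4/80hi CIII 3). The 14 listed markers of T and NK cells, which also express Itgal, summed to 20.9 to 55.8 RPM in the 6 F4/80lo libraries and to 1.39 to 11.7 RPM in 5 of the F4/80hi libraries, against 84.0 RPM in the library labelled F4/80hi VEH 3. Their part in the Itgal difference was not tested. Itga4 differed by 0.13 and -0.02, Itgav by 0.74 and -0.17 and Itgb5 by 0.38 and -0.28, with overlapping groups throughout. With those numbered 3 left out the differences were 2.01 and 1.81 for Itgal, -0.02 and -0.08 for Itga4, 0.96 and 0.02 for Itgav and 0.53 and -0.21 for Itgb5.

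In this contrast 0 of the 10 members passed in either treatment, as did 0% of all genes by limma. At an unadjusted p under 0.05 there were 634 genes under VEH and 581 under CIII, and DESeq2 called 20 in each (0.186%) and edgeR 0. The 20 under CIII held Itgax, which met the minimum there in F4/80lo Mϕ alone, so that its direction was fixed. The replicate block called 0.112% of all genes under VEH and 0.168% under CIII, and limma without the number 3 libraries 0.74% and 0.731%. Groups did not overlap in 10.4% of the genes under VEH (6.19% higher and 4.2% lower in F4/80lo Mϕ) and in 11.6% under CIII (5% higher and 6.63% lower), against 0 and 3 of the 10 members, the 3 being Itgb1, Itgam and Itgax, the last below the minimum in F4/80hi Mϕ. The members' median differences were 0.17 and -0.23, against 0.07 and -0.06 over all genes.

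**Figure D5:**
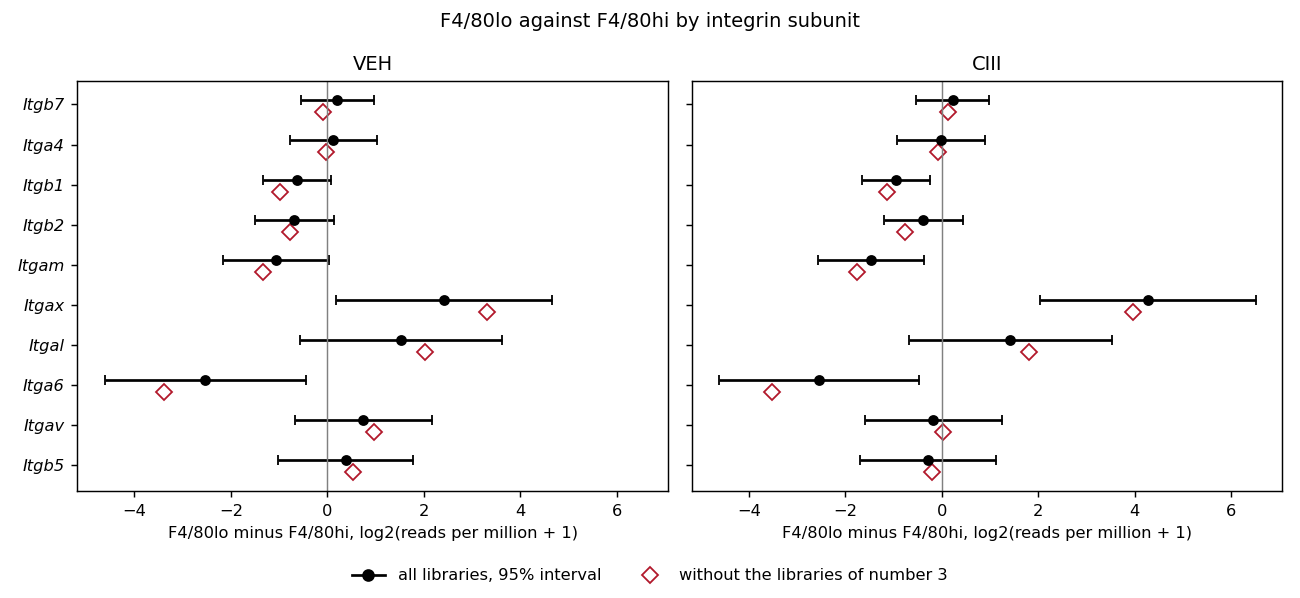
Difference between F4/80lo and F4/80hi Mϕ on the scale of log2(RPM + 1) for each member under VEH (left) and CIII (right), with all libraries (black, 95% interval) and without the number 3 libraries (open diamonds). Itga6 moves from -2.53 to -3.38 under VEH and from -2.55 to -3.52 under CIII, and Itgb7 stays near 0.

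The partner shares within each library were compared between the subpopulations by a two-sided exact permutation test within treatments (400 arrangements, smallest possible p = 0.005), adjusted over the 3 shares. Itgb7 made up a share of Itgb7 plus Itgb1 reads that was 13.1 percentage points higher in F4/80lo Mϕ (exact permutation p = 0.01, adjusted 0.015), higher in 5 of 6 same-number pairs. Tested over those pairs by exact sign flips, where the smallest possible p is 0.0313, it gave an exact adjusted p of 0.0625. Among αL, αM and αX reads, Itgax took 1.998 percentage points more in F4/80lo Mϕ (exact permutation p = 0.005, adjusted 0.015, and 0.0469 over pairs). Itgal took 3.94 points more (exact permutation p = 0.065, adjusted 0.065, and 0.0469 over pairs), and both were higher in 6 of 6 pairs. The Itgax share in F4/80hi Mϕ rested on 1 to 7 reads per library, and under CIII Itgax was below the minimum there. That fixes its direction under CIII, so the test of the Itgax share is a description. Without the number 3 libraries the differences were 13.6, 2.50 and 2.94 points, and with 36 arrangements left no exact p could fall below 0.0556.

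The other genes of the pathway were taken from lists of 16 further integrin subunits, 31 activators and adaptors, 14 signalling kinases and surface partners and 22 ligands. With all libraries none of them passed an adjusted p under 0.05 by limma in any of the comparisons, as 0% of all genes did. Between F4/80lo and F4/80hi Mϕ the replicate block called the ligand Spp1 (osteopontin) under CIII, where it called 0.168% of all genes. With limma and no number 3 libraries, the ligand Icam2 was called under VEH, and Icam2, Spp1 and Jam2 under CIII, where 0.74% and 0.731% of all genes were. Of the further subunits only 2 were abundant enough to test, Itga5, the fibronectin receptor chain, and Itga9. Itgae, the other alpha chain that pairs with β7, had 3 reads over all 12 libraries, so reads of α4 were the ones measured beside those of β7.

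Among the 25 tested activators and adaptors in F4/80lo Mϕ, 16 lay above and 9 below 0 under CIII, with a median of 0.19. Tln1 (talin), Rasa3, Rassf5 and Apbb1ip were wholly higher under CIII, as 3.82% of all genes were, and Rsu1 was wholly lower, as 4.92% were. For F4/80hi Mϕ 17 of 26 lay above 0 and 9 below, with a median of 0.08. There Flna was wholly higher (4.73% of all genes) and Rsu1, Itgb1bp1 and Rap1a wholly lower (5.76%). Of the kinases and surface partners 9 of 13 lay above 0 in F4/80lo and 10 of 13 in F4/80hi Mϕ, with medians of 0.26 and 0.44 and with Plcg2 wholly higher in both, Cd151 and Ptk2b in F4/80lo Mϕ. Of the ligands 5 of 13 lay above and 8 below 0 in F4/80lo Mϕ, with a median of -0.16, where Cdh1 and Icam1 were wholly higher and Emilin1 wholly lower. For F4/80hi Mϕ, 11 ligands reached the minimum in both groups, 7 above and 4 below 0, with a median of 0.37 and overlapping groups. The all-gene medians were -0.05 and 0.05.

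Among the ligands by name, Madcam1 had 0 reads in all 12 libraries, and Vcam1 had 14 reads in total. Fn1 (fibronectin) was abundant, at 2289 to 17414 RPM in F4/80lo and 2248 to 24942 RPM in F4/80hi libraries, lowest in the VEH 3 libraries of both, with log2 fold changes under CIII of 1.15 (SE 0.69) and 1.05 (SE 0.88) and overlapping groups. Cdh1, the E-cadherin that αEβ7 binds, stood at 3.4, 5.1 and 1.7 RPM in F4/80lo VEH and 51.6, 22.1 and 6.6 RPM in F4/80lo CIII libraries, and at 0 to 2.8 and 5.2 to 11.5 RPM in the F4/80hi ones. In F4/80lo Mϕ its groups did not overlap, as for 8.73% of all genes, with a log2 fold change of 2.33 (SE 0.82, adjusted p = 0.9996 by limma). The F4/80hi VEH libraries held 2, 2 and 0 reads, under the minimum, so that only the CIII libraries brought the gene into that test, and no fold change is given there.

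The genes whose levels ran most closely with Itgb7 over the 12 libraries, among 8447 genes with a mean of at least 10 RPM, were Foxo3 (r = 0.897), Hipk1 (r = 0.889), Nhsl2 (r = 0.873), Fuca1 (r = 0.872) and Foxo1 (r = 0.839), by Pearson's r on log2(RPM + 1). The libraries share treatment, sort and replicate number, so these are descriptions. Foxo3, a forkhead transcription factor, had mean levels of 31.2 and 70.6 RPM in F4/80lo VEH and CIII and 26.5 and 71.4 RPM in F4/80hi VEH and CIII libraries. Among the members Itgb5 (r = 0.614) and Itga4 (r = 0.585) came next to Itgb7, and Itgam (r = -0.080) and Itga6 (r = -0.064) were near 0 in this measure.

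Lymphocytes also use Itgb7, Itga4 and Itgal. The 11 B cell markers summed to 2.20 to 82.1 RPM over all libraries, highest in a F4/80lo CIII library. Cd3e, a chain of the T cell receptor complex, reached at most 4.5 RPM. Neutrophil markers summed to 34.9 to 150.1 RPM, markers of eosinophils and mast cells to 0.603 to 15.2 RPM, and mesothelial markers to at most 2.24 RPM. The monocyte-derived list summed to 5207 to 22965 RPM in F4/80lo and 1355 to 11554 RPM in F4/80hi libraries, and the resident list to 694 to 1825 and 867 to 8709 RPM. The contrast of CIII with VEH is given for the markers that reached the minimum mean in both groups. Of the monocyte-derived markers 6 of 12 lay above and 6 below 0 in F4/80lo Mϕ, with a median of 0.02, and the MHCII genes Cd74, H2-Aa and H2-Ab1 were wholly higher (3.82% of all genes). Of 11 in F4/80hi Mϕ, 6 lay above 0, with a median of 0.52. Of the resident markers 5 of 10 lay above 0 in F4/80lo Mϕ. In F4/80hi Mϕ 2 of 12 did, with a median of -0.51, although Mertk was wholly higher (4.73% of all genes). Above 0 in F4/80lo Mϕ were 0 of 2 B cell markers, 0 of 3 of T and NK cells and 1 of 3 of neutrophils. Of 3 neutrophil markers in F4/80hi Mϕ 1 lay above 0 and S100a8 was wholly lower (5.76% of all genes), while no B, T or NK cell marker reached the minimum in both groups. The part of any of these cells in the levels of the members was not tested.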

How the data were processed

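3′ mRNA libraries with unique molecular identifiers (UMI) of FACS-sorted F4/80lo and F4/80hi Mϕ were used, 3 per group and 12 in all. The authors trimmed reads with Bbduk, mapped them to GRCm38 with STAR, collapsed UMI duplicates, counted with HTSeq-count and scaled with DESeq2 (versions not given in the sources used here). The deposited values are normalized counts, a signal unit in which whole counts are divided by 1 size factor per library, set by the authors for each subpopulation alone. In every library 100% of the values were whole multiples of 1 read within 0.01 reads, and whole reads were recovered. A symbol from GENCODE was found for 47224 of 47643 identifiers. Depth was 426624 to 3389448 reads on genes.

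CIII and VEH were compared within each subpopulation with limma 3.58.1 (R 4.3.3) on log2(normalized count + 1) for genes with a mean of at least 3. F4/80lo and F4/80hi Mϕ were compared on log2(RPM + 1), TMM-scaled over the 12 libraries with edgeR 4.0.16, in 1 limma model of the 4 groups with a mean of at least 3 RPM. All tests were two-sided, and p-values were adjusted over all genes after Benjamini and Hochberg with a threshold of 0.05. Shares were tested by exact permutation in Python 3.11.15. The functions were tested on simulated data with known changes in both directions. Alternatives were DESeq2 1.42.0, the edgeR quasi-likelihood test, other scalings and pseudocounts, no filter, a replicate block and left-out libraries.

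The members, their list of related genes and the marker lists were chosen with earlier results of these data known. Named were all 10 members, Itgae, Cdh1, Vcam1, Madcam1 and Fn1, listed genes past the threshold between the subpopulations, of which there were none, and the 5 genes closest to Itgb7. Other listed genes and markers were named after their values were seen. The replicate numbers pair the samples by the correlations of their deviations from the group means, which for same-number libraries were 0.12 to 0.50 (VEH and CIII, F4/80lo), 0.22 to 0.64 (VEH and CIII, F4/80hi), 0.39 to 0.69 (F4/80lo and F4/80hi, VEH) and 0.26 to 0.48 (F4/80lo and F4/80hi, CIII). The highest between unlike numbers was 0.17, 0.28, 0.22 and 0.02, above that of number 1 for VEH and CIII in both subpopulations. What a number stands for is not given in the labels.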

Additional observations from a re-analysis of the deposited data

How the results depend on the processing

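Under 14 alternatives each, Itgb7 kept its sign in the contrast of CIII and VEH, with 1.07 to 1.50 in F4/80lo Mϕ and 0.96 to 1.50 in F4/80hi Mϕ (single libraries left out, 1.07 to 1.50 and 1.06 to 1.50). Itgam and Itgb2 in F4/80hi Mϕ, Itgam, Itgav and Itgax in F4/80lo Mϕ, Itgal in F4/80hi Mϕ and Itga6 in both changed sign under 1 to 3 of 14.

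Counts of genes called were 0 with all libraries in the 5 comparisons across genes. DESeq2 gave 2 for CIII against VEH in F4/80lo Mϕ and 20 in each contrast of the subpopulations, Itgax under CIII among them. The replicate block gave 12 under VEH and 18 under CIII, no call in the other comparisons, and for the shares 13.1 points for Itgb7 (no longer past the threshold) and 3.94 points for Itgal (now past it). It added Itgax under CIII among the members and changed no other call of theirs. Under CIII Itgax met the minimum in F4/80lo Mϕ alone, which fixes its direction in this call and in that of DESeq2. Without the number 3 libraries, chosen after seeing the data, the counts were 12 for CIII against VEH in F4/80lo Mϕ, 79 under VEH and 78 under CIII, and the shares of Itgb7 and Itgax, at 13.6 and 2.50 points, lost their calls in a design whose smallest exact p is 0.0556. Leaving out single libraries gave 0 to 24 calls in the contrast under VEH (4 without F4/80lo VEH 3 and 24 without F4/80hi VEH 3) and 0 to 0 in the others. It moved the Itgb7 difference between subpopulations over 0.05 to 0.48 under VEH and 0.02 to 0.40 under CIII. Those of Itgb1 moved over -0.84 to -0.37 and -1.07 to -0.80, of Itgb2 over -0.90 to -0.49 and -0.60 to -0.15, of Itgam over -1.51 to -0.71 and -1.82 to -1.19, of Itga6 over -3.72 to -1.90 and -3.65 to -1.85, and of Itgav under VEH over 0.26 to 1.45. The shares moved over 11.8 to 14.4 points for Itgb7, 2.14 to 5.16 for Itgal, past the threshold without F4/80lo VEH 1, F4/80lo CIII 1 or F4/80hi CIII 3, and 1.39 to 2.43 for Itgax.

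Differences near 0 between the subpopulations reversed. Without the number 3 libraries, Itgb7 was -0.0884 and Itga4 -0.0232 under VEH and Itgav 0.0211 under CIII. Itga4 under CIII was 0.0859 with edgeR, 0.0908 with DESeq2, 0.0712 with no TMM factor and 0.00588 with quantile normalization. With single libraries left out, Itga4 lay between -0.21 and 0.32 under VEH and between -0.33 and 0.40 under CIII, Itgb5 between -0.25 and 1.14 under VEH and between -0.56 and 0.0892 under CIII, and Itgav between -0.59 and 0.41 under CIII. The cause was not tested. Itgax in F4/80hi Mϕ rests on 1 to 7 reads per library, and Itgal in F4/80hi VEH 1 on 3 reads.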
